A study of Mus musculus with 6 samples.

Results

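The genes described here encode proteins of the Z-disc and M-band of the sarcomere, the proteins that set the length of the thin filament, and the proteins that gather on the sarcomere under mechanical or proteotoxic stress. The members were 42 genes given by a list of symbols. The list refers to no measured value, but it was chosen with earlier results of these data known. All 42 were found among the 13363 genes with a value in the mouse data, and 41 had a mean of at least 1 FPKM (sequenced fragments scaled by the length of the transcript and by the reads mapped in the library). RNA sequencing had been done on the gastrocnemius, the large fast-fibre muscle of the calf, of male Balb/c mice bought at 6 weeks of age and acclimated for 1 week. In the C26 group (n = 3) the mice carried a tumor of C26, a mouse colon adenocarcinoma line of which 500000 cells had been placed under the skin of the flank, and the Control group (n = 3) carried no tumor. No altered allele is given for either group. The tumor is a transplant of 1 cell line, and the mice were weighed daily until tissue collection. The sources used here do not name the day on which the sequenced muscles were taken.

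The Z-disc is the plate that joins neighbouring sarcomeres, where the barbed ends of actin filaments are crosslinked and titin is anchored. The M-band holds the thick filaments in register at the centre of the sarcomere. Many Z-disc proteins move between the sarcomere and the nucleus or bind calcineurin and kinases, so the structure is regarded as a site of mechanical signalling as well as of force transfer. Tumor-induced wasting, or cachexia, removes myofibrillar protein from the muscle, and muscle ubiquitin ligases are a well-known part of that loss.

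The labelled tissue was checked first, since the labels give the source as gastrocnemius muscle while 1 sentence of their extraction protocol speaks of THP-1 cells, a human monocytic line. All 12 markers of skeletal muscle fibre were listed, and their summed TPM (FPKM rescaled to a sum of 1000000 per muscle) ran from 152341 to 229559 in the C26 muscles and from 287268 to 291365 in the controls. Of these 12 markers, 3 fell (Pvalb, Mylpf and Tnnc2) and 9 did not pass the test. The count depended on the fit, with 0 falling without C26 replicate 1 or Control replicate 1, 2 without Control replicate 2 or Control replicate 3, 6 without C26 replicate 3 and 7 on FPKM as deposited, while 3 rose and 3 fell after quantile normalization. Summed over all genes, the controls held 626992 to 688300 FPKM and the C26 muscles 531061 to 585169, so FPKM ratios and scaled fold changes differ, and read counts were not analysed here. Of 8 adipocyte markers 6 fell and 1, Plin4, rose (log2 fold change 1.77), and their summed TPM overlapped between the groups (774 to 1110 in the C26 muscles and 840.1 to 6494 in the controls). The number that fell was 0 without C26 replicate 1, C26 replicate 2 or Control replicate 2, 1 without Control replicate 1 and 3 without C26 replicate 3, and the rise of Plin4 was lost without C26 replicate 1 or C26 replicate 2. Of 7 fibroblast markers 5 fell (303 to 377 against 572 to 797 in summed TPM), or 3 without C26 replicate 1, C26 replicate 2, Control replicate 1 or Control replicate 2. For macrophage markers, 0 of 6 were called by limma (2 higher and 1 lower at an unadjusted p under 0.05), with 2 higher without C26 replicate 3 and 1 higher after quantile normalization, and the sums were 35.7 to 496 in the C26 muscles and 33.7 to 72.0 in the controls. Control replicate 3 stood apart from the other controls by 134 FPKM of the B cell gene Cd79b, which was at 0.11 and 0.21 FPKM in the others. The part of these shifts in the results was not tested, and in whole muscle fewer cells of a type and less RNA per cell cannot be told apart.

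In the C26 muscles 10 of the 42 members rose, 4 fell and 28 did not pass the test (limma on log2(TPM + 1) after TMM scaling, Benjamini-Hochberg adjusted p under 0.05 over all 13363 genes). Among all genes 19.4% rose and 14.5% fell. The genes that rose were the muscle ankyrin repeat genes Ankrd1, Ankrd2 and Ankrd23, the actin crosslinker Flnc and its partner Xirp1, the filament elongator Lmod2, the Z-disc genes Myot and Pdlim5, the scaffold gene Nrap, and Des, which encodes desmin. Those that fell were the Z-disc genes Synpo2l, Palld and Pdlim7 and the filament cap gene Tmod4. A fold change above 4 was reached by 5 of the higher members, Ankrd1, Flnc, Lmod2, Xirp1 and Ankrd2, against 1.77% of all genes, and by 3 higher members without Control replicate 1 and 2 without Control replicate 2 or Control replicate 3. For falling members the number past that fold was 0 of the 4 called by limma, where 1.73% of all genes fell that far, and the deepest fall among them was -1.52 on the log2 scale, for Synpo2l. The C26 and control muscles did not overlap in 15 higher members, against 27.0% of all genes, and in 8 lower members, against 26.5%, or in 9 higher and 13 lower members after quantile normalization and in 13 and 13 on FPKM as deposited. The median log2 fold change was 0.14 over the members and -0.05 over all genes, and 23 members lay above 0 and 19 below. The order of these medians turned after quantile normalization (-0.11 over the members and 0.02 over all genes), and on FPKM as deposited both were below 0 (-0.04 and -0.14). The direction split depended on the scaling, with 8 higher and 11 lower members on FPKM as deposited and 7 higher and 13 lower after quantile normalization. When 1 muscle was left out, the counts of higher and lower members were 6 and 2 without C26 replicate 1, 6 and 3 without C26 replicate 2, 9 and 11 without C26 replicate 3, 4 and 1 without Control replicate 1, 9 and 3 without Control replicate 2, and 5 and 4 without Control replicate 3.

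**Figure D1:**
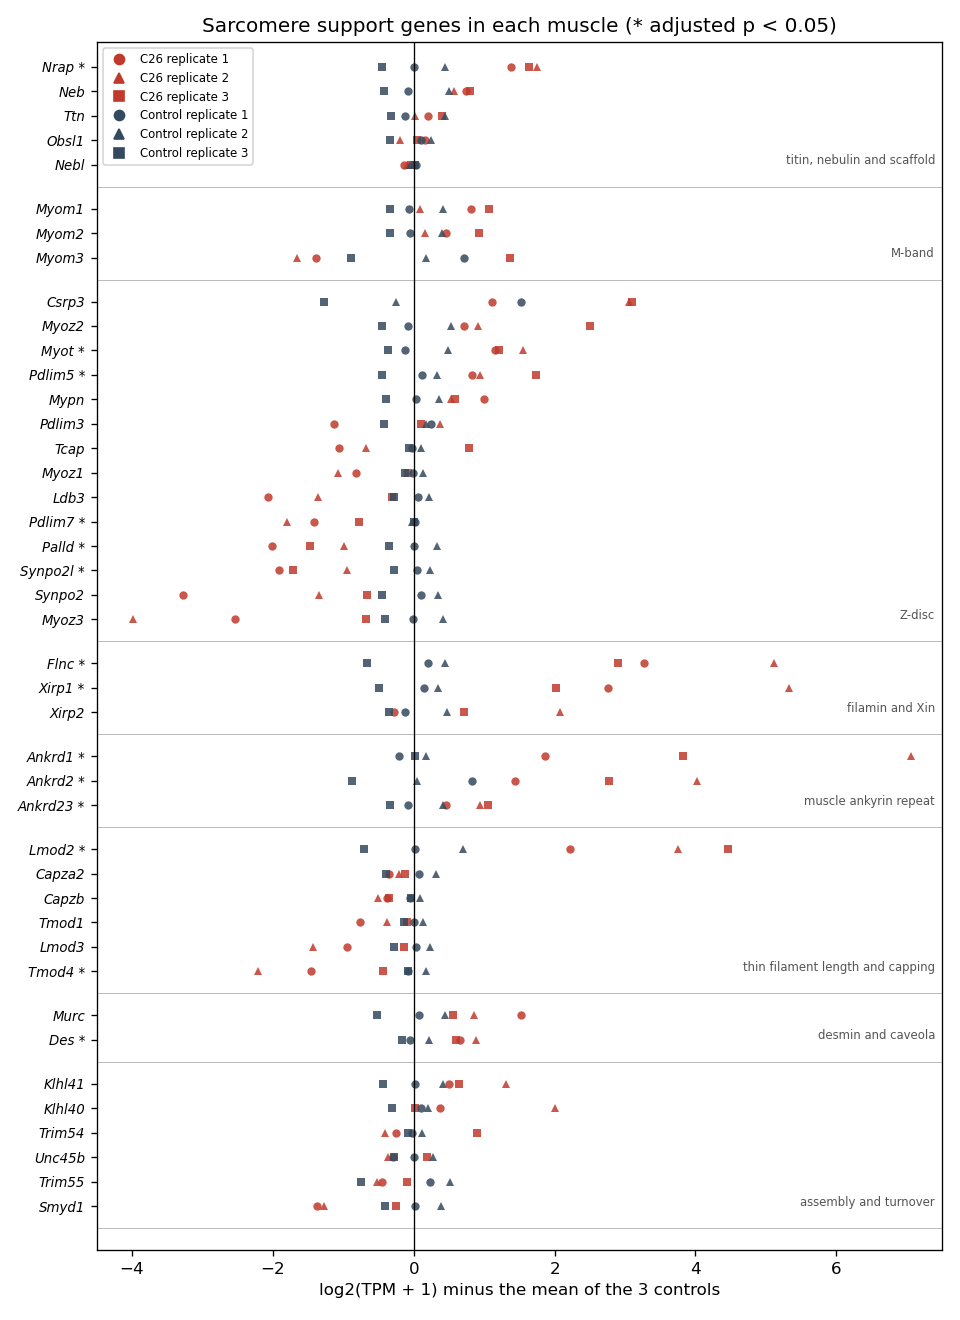
Each point is 1 muscle, placed by its log2(TPM + 1) minus the mean of the 3 controls, for the 42 members grouped by role, with C26 muscles in red and controls in dark blue and the shape giving the replicate number. Stars mark members with an adjusted p under 0.05: of the 10 that rose, 6 are filamin, Xin, ankyrin repeat and leiomodin genes, and the 4 that fell are Palld, Pdlim7, Synpo2l and Tmod4.

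Promoters were read for all members in the RefSeq table of GRCm38.p6, which held 44 promoters of 33 members, 8 of them higher, 4 lower and 21 not called. The 250 bases before each start were searched on both strands for sequences known as sites of transcription factors. Those best known from muscle genes were the CArG box of serum response factor, the MEF2 site of the MEF2 factors, and the MCAT element CATTCC of the TEAD factors. A MEF2 site was found in 18.2% of the member promoters and in 2.92% of all 32851 promoters. A CArG box was found in 9.09% against 1.47%, and an MCAT element in 20.5% against 12.6%. Alternative promoters of 1 gene can overlap, so the same match can be counted more than once. Among the 11 promoters of higher members, 3 held an MCAT element (27.3%) and 0 held a CArG box or a MEF2 site. Of the 26 promoters of members not called, 19.2% held an MCAT element, 23.1% a MEF2 site and 15.4% a CArG box. Among the 7 promoters of lower members, 2 held a MEF2 site, both of Synpo2l, and 1 held an MCAT element, that of Palld. The FoxO core GTAAACA (2.27% against 3.17%), the STAT site TTCNNNGAA (4.55% against 7.02%) and the heat shock pair GAANNTTC (4.55% against 6.69%) were found in a smaller share of member promoters than of all promoters. In the 11 promoters of higher members the share of each of these 3 was 9.09%, above that of all promoters, and rested on 1 promoter each, of Ankrd23 for the FoxO core and the STAT site and of Ankrd1 for the heat shock pair. The windows below are those of the 3 higher members with an MCAT element, a window of the lower member Synpo2l, and those of Myoz2, Myom3 and Xirp2, which hold a MEF2 site and were more than 2 times as high in 1 C26 muscle as in the others, replicate 3 for Myoz2 and Myom3 and replicate 2 for Xirp2. All run 5′ to 3′ in the direction of the gene and end at the base before the start, with the MCAT element or MEF2 site in capitals.
Flnc, chr6:29433006-29433255, plus strand: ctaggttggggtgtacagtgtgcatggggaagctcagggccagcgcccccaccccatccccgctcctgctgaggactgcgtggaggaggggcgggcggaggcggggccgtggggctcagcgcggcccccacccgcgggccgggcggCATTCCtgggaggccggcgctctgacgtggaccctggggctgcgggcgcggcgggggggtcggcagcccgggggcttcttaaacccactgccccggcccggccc
Ankrd1, chr19:36119845-36120094, minus strand: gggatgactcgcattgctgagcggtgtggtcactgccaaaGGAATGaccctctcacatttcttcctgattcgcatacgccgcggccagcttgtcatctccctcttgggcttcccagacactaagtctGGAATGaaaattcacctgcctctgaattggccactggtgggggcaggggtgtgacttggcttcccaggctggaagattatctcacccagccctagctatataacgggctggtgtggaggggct
Ankrd23, chr1:36535740-36535989, minus strand: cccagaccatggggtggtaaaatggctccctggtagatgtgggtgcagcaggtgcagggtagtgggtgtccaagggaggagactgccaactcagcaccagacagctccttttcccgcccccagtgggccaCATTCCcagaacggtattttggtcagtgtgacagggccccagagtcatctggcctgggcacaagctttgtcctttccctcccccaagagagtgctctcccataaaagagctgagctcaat
Synpo2l, chr14:20668355-20668604, minus strand: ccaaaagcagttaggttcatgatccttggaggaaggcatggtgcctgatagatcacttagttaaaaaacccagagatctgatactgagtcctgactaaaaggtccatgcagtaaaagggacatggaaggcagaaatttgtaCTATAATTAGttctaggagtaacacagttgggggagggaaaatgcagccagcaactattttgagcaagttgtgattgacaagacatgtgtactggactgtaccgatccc
Myoz2, chr3:123034988-123035237, minus strand: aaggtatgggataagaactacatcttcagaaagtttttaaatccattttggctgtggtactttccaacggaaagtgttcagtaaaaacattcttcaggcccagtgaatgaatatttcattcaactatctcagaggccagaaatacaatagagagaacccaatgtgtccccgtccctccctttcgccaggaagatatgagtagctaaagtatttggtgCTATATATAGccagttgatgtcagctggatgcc
Myom3, chr4:135759465-135759714, plus strand: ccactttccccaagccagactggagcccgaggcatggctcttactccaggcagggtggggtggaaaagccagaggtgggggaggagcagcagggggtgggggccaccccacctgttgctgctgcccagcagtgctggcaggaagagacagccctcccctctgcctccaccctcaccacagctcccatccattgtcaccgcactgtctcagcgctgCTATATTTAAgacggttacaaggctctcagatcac
Xirp2, chr2:67445752-67446001, plus strand: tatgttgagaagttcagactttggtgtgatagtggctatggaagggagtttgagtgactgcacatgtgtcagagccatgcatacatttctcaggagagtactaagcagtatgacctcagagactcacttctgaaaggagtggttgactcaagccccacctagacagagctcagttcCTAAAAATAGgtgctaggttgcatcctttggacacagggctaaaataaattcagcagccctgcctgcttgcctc
The MCAT element began 104 bases before the start in Flnc and 120 in Ankrd23, and Ankrd1 held 2 of them, 210 and 123 bases before the start, both on the opposite strand. Flnc and Ankrd23 each have 1 further window in the table, with no MCAT element. The MEF2 site began 109 bases before the start in Synpo2l, 33 in Myoz2, 35 in Myom3 and 74 in Xirp2. A match is a description of the letters and not a site shown to be bound in these muscles.

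Among the giant and scaffold proteins, 1 of 5 rose and 0 fell. Nrap encodes a nebulin-related anchoring protein that brings actin to growing myofibrils. It was at 415, 554 and 461 FPKM in C26 replicates 1, 2 and 3 and at 187, 226 and 143 FPKM in the controls. Every C26 muscle lay above every control (log2 fold change 1.59, SE 0.25, adjusted p = 0.00706), and the call held with each muscle left out in turn. Neb, which encodes the ruler protein nebulin, was also higher in all 3 C26 muscles (236 ± 10.5 against 171 ± 42.0 FPKM, mean and SD) but missed the threshold (log2 fold change 0.70, 95% interval 0.11 to 1.30, adjusted p = 0.068), which it passed without Control replicate 2 (adjusted p = 0.0241). Ttn, which encodes the spring protein titin, differed by 0.21 on the log2 scale (95% interval -0.35 to 0.76) with overlapping groups. Obsl1, whose product links titin to the M-band, differed by 0.00596 (95% interval -0.47 to 0.48). Nebl, which encodes the mainly cardiac nebulette, lay between 0.02 and 0.11 FPKM in all 6 muscles, too low for a fold to be read.

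The 3 myomesin genes encode proteins that crosslink myosin at the M-band, and 0 of them were called by limma or had an unadjusted p under 0.05. Myom1 was at 374, 234 and 418 FPKM in the C26 muscles and at 240.0, 298 and 206 FPKM in the controls. C26 replicates 1 and 3 were above the controls and replicate 2 was among them (log2 fold change 0.65, 95% interval -0.09 to 1.40, adjusted p = 0.146). Myom2 gave a log2 fold change of 0.52 (95% interval -0.13 to 1.16). Myom3, the myomesin of slower fibres, was at 0.92, 0.69 and 8.90 FPKM in the C26 muscles and 6.91, 4.01 and 1.89 FPKM in the controls, so that the highest muscle and the lowest were both from C26 mice (95% interval of the log2 fold change -2.61 to 1.48).

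Of the 14 Z-disc genes, 2 rose, 3 fell and 9 did not pass the test. The counts of higher and lower genes were 2 and 6 on FPKM as deposited, 1 and 7 after quantile normalization, 2 and 8 without C26 replicate 3, and 1 and 1 without Control replicate 1. They were 1 and 2 without C26 replicate 1, 1 and 3 without C26 replicate 2, without Control replicate 3 or with the replicate block, and 4 and 3 with the 20 most abundant genes left out of the scaling. Tcap, which encodes telethonin, the cap of the titin amino terminus, was the most abundant member in the controls at 4896, 4714 and 4903 FPKM. Its C26 values were 2022, 2719.9 and 6776 FPKM, with replicates 1 and 2 below all controls and replicate 3 above them (log2 fold change -0.32, 95% interval -1.41 to 0.78, adjusted p = 0.608). Without C26 replicate 3 the fold change was -0.78 (adjusted p = 0.0141), and without C26 replicate 1 it was 0.05.

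Myot and Pdlim5 were the Z-disc genes that rose. Myot encodes myotilin, which crosslinks actin and binds filamin C. It was at 699.5, 955 and 679 FPKM in the C26 muscles and 342, 460.2 and 297 FPKM in the controls, with no overlap (log2 fold change 1.31, SE 0.25, adjusted p = 0.012). Leaving out Control replicate 1 took it just above the threshold of 0.05 (adjusted p = 0.0522). Pdlim5 encodes a PDZ and LIM protein that tethers protein kinase C at the Z-disc. It was at 195, 216 and 342 FPKM against 140.2, 143 and 98.0 FPKM, again without overlap, with C26 replicate 3 the highest (log2 fold change 1.17, SE 0.31, adjusted p = 0.0306). Its call was lost without C26 replicate 1, C26 replicate 2, Control replicate 1 or Control replicate 3, with adjusted p up to 0.0808, and also after quantile normalization (adjusted p = 0.0887) and with the replicate block (adjusted p = 0.0857).

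Synpo2l, Palld and Pdlim7 were the Z-disc genes that fell. Synpo2l, a cytoskeletal adaptor of heart and skeletal muscle whose promoter window with a MEF2 site is printed above, was at 12.3, 25.2 and 13.3 FPKM in the C26 muscles and 58.1, 58.8 and 48.1 FPKM in the controls. The groups were far apart (log2 fold change -1.52, SE 0.28, adjusted p = 0.0108), and the call held with each muscle left out. Palld encodes palladin, an actin scaffold found in many cell types. It was at 3.64, 8.27 and 5.20 FPKM against 19.5, 21.8 and 15.7 FPKM, with no overlap (log2 fold change -1.49, SE 0.30, adjusted p = 0.0139), and was lost only without Control replicate 1 (adjusted p = 0.0544). Fibroblast markers were lower in the same muscles, and their part in the Palld value was not tested. The related Mypn, which encodes the striated muscle protein myopalladin, had the opposite sign, 100.3 ± 19.5 against 71.3 ± 13.2 FPKM, and missed the threshold (log2 fold change 0.70, adjusted p = 0.0611, or 0.0448 without Control replicate 2). Pdlim7, which encodes enigma, another PDZ and LIM protein, was at 192, 152 and 280.3 FPKM in the C26 muscles and 618, 528 and 636 FPKM in the controls. All C26 values were below all control values (log2 fold change -1.34, SE 0.26, adjusted p = 0.0126), and the call was lost without C26 replicate 1 or Control replicate 1 (adjusted p up to 0.0539). In the same gene family, Pdlim5 and Pdlim7 therefore lay on opposite sides of 0, and Pdlim3 differed by -0.22 (95% interval -1.22 to 0.78).

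The remaining Z-disc genes missed the threshold, several by little. Ldb3, which encodes the titin- and α-actinin-binding protein ZASP, was lower without overlap, at 169, 286 and 536 FPKM against 881, 863 and 717 FPKM (log2 fold change -1.25, adjusted p = 0.0657). Synpo2, which encodes myopodin, a filamin-binding actin bundler, was at 6.59, 27.7 and 40.4 FPKM against 87.3, 92.1 and 61.9 FPKM (log2 fold change -1.77, adjusted p = 0.0769). The 3 calsarcin genes, whose products hold calcineurin at the Z-disc, pointed different ways. Myoz1, the abundant fast-fibre form, was at 1374 ± 445 FPKM against 2436 ± 56.2 FPKM (log2 fold change -0.66, adjusted p = 0.101). Myoz3, also a fast-fibre form, was at 7.59, 2.51 and 27.0 FPKM against 54.7, 65.5 and 43.1 FPKM, without overlap (log2 fold change -2.40, adjusted p = 0.0549). Myoz2, the slow-fibre and cardiac form, was at 40.2, 47.9 and 132 FPKM against 27.0, 37.0 and 21.7 FPKM and was higher in every C26 muscle (log2 fold change 1.38, adjusted p = 0.0781). Csrp3, which encodes muscle LIM protein, was at 87.1, 351 and 326 FPKM in the C26 muscles and 138, 35.3 and 19.8 FPKM in the controls. Control replicate 1 was above C26 replicate 1, so the groups overlapped (log2 fold change 2.42, adjusted p = 0.0637). Without Control replicate 1 the Csrp3 difference passed the threshold (log2 fold change 3.19, adjusted p = 0.0441). That muscle also had the highest summed TPM of the 9 slow-fibre markers among the controls, 874 against 279 and 534. The same sum was 388, 109 and 769 in C26 replicates 1, 2 and 3. The part of slow fibres in the Csrp3 values was not tested.

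**Figure D2:**
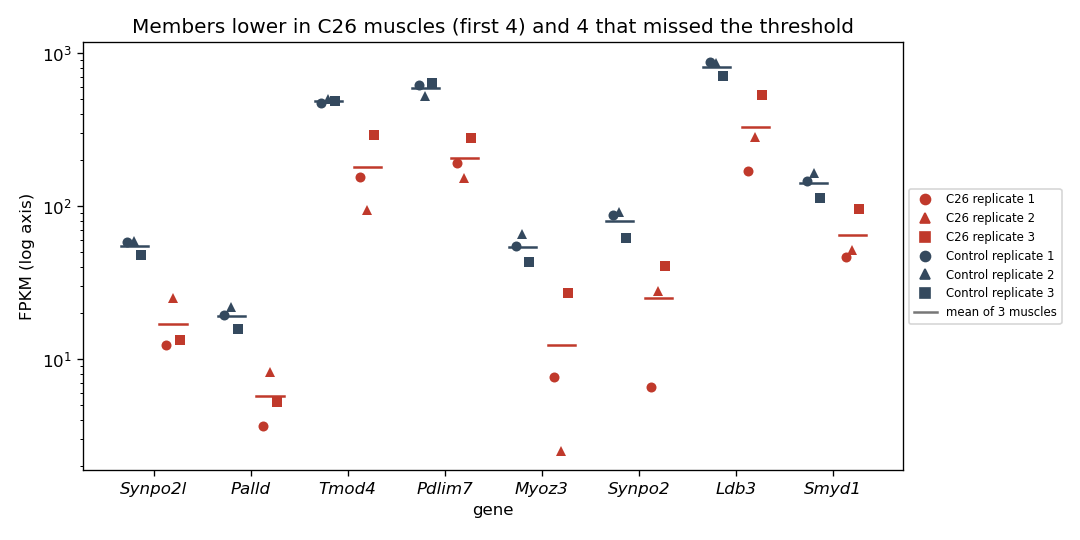
FPKM on a log axis of the 4 members that fell (Synpo2l, Palld, Tmod4, Pdlim7) and of 4 lower members that missed the threshold (Myoz3, Synpo2, Ldb3, Smyd1), with 1 point per muscle and a line at the mean of 3. In all 8 genes the 3 C26 values lie below the 3 control values in FPKM, and in Tmod4, Pdlim7, Myoz3, Synpo2, Ldb3 and Smyd1 C26 replicate 3 lies nearest to the controls.

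Filamin C and the Xin repeat proteins gather at damaged or strained myofibrils, and 2 of the 3 genes rose. Flnc encodes filamin C, an actin crosslinker of the Z-disc and the cell membrane. It was at 375, 1398 and 272 FPKM in the C26 muscles and 52.5, 54.9 and 29.5 FPKM in the controls. All C26 muscles were well above the controls and replicate 2 was far above the other 2 (log2 fold change 3.77, SE 0.61, adjusted p = 0.00782). The call held with each muscle left out, and the log2 fold change was 3.09 without C26 replicate 2. Xirp1, which encodes the filamin-binding protein Xin, showed the same order of muscles, 80.2, 494 and 45.0 FPKM against 15.0, 15.3 and 9.75 FPKM (log2 fold change 3.37, SE 0.82, adjusted p = 0.023). Its call was kept without C26 replicate 2 (log2 fold change 2.39, adjusted p = 0.0185) and without C26 replicate 3, and lost without C26 replicate 1 or any of the 3 controls (adjusted p up to 0.0711). Xirp2, the other Xin gene, was the most abundant of the 3 in the controls at 98.5, 132 and 87.0 FPKM. In the C26 muscles it was at 74.6, 396 and 139.6 FPKM, with replicates 2 and 3 above the controls and replicate 1 below them in FPKM (log2 fold change 0.83, 95% interval -0.56 to 2.23, adjusted p = 0.293).

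All 3 muscle ankyrin repeat genes rose, but 1 of 3 was called on FPKM as deposited and with replicate number as a block, 2 with 4 other alternatives (quantile normalization, a pseudocount of 0.1, an intensity trend and weighted TMM), and 0 without Control replicate 1 or Control replicate 3. Their products bind the spring region of titin and also enter the nucleus, and they are known as stretch-response proteins. Ankrd1 was nearly silent in the controls, at 0.52, 0.78 and 0.75 FPKM, and was at 3.65, 159.6 and 14.7 FPKM in the C26 muscles. The C26 values were all higher than the control values and spread widely, with replicate 2 the highest (log2 fold change 4.25, SE 1.2, adjusted p = 0.0361). Without C26 replicate 2 the log2 fold change was 2.83 (adjusted p = 0.0317), and the call was lost without C26 replicate 3 or any of the 3 controls (adjusted p up to 0.106). Ankrd2, best known from slow fibres, was at 139, 864 and 329 FPKM against 108, 55.0 and 33.8 FPKM. No C26 muscle was among the controls, although C26 replicate 1 was close to Control replicate 1 (log2 fold change 2.74, SE 0.71, adjusted p = 0.0283). The call was lost without C26 replicate 2 (log2 fold change 2.10, adjusted p = 0.0666) or any of the 3 controls, with adjusted p up to 0.0686. Ankrd23 was the most abundant of the 3 in the controls, at 480.0, 597 and 418 FPKM, and was at 587, 849.9 and 833 FPKM in the C26 muscles. C26 replicate 1 was below Control replicate 2 in FPKM but above it after scaling (log2 fold change 0.81, SE 0.25, adjusted p = 0.048), and the call held with 1 of the 6 muscles left out, Control replicate 2, and was lost in the other 5 (adjusted p up to 0.135). With all 6 muscles it held in 5 of 11 alternatives and was lost in the 6 named above, with adjusted p up to 0.148. The 3 genes thus ranged from a rise of 0.81 for the most abundant to 4.25 for the least abundant on the log2 scale, and an MCAT element stands in the window of Ankrd1 and in 1 of 2 windows of Ankrd23, while the window of Ankrd2 holds none. Of 4 listed heart markers 0 rose and 1, Actc1, fell in the same muscles. Their summed TPM of 12.1 to 28.9 against 91.1 to 124 came mostly from Actc1 (13.6, 5.53 and 2.71 FPKM against 76.5, 69.9 and 59.5 FPKM), and the other 3, Myh6, Tnni3 and Tnnt2, were at 0.05 to 3.48 FPKM in all muscles.

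**Figure D3:**
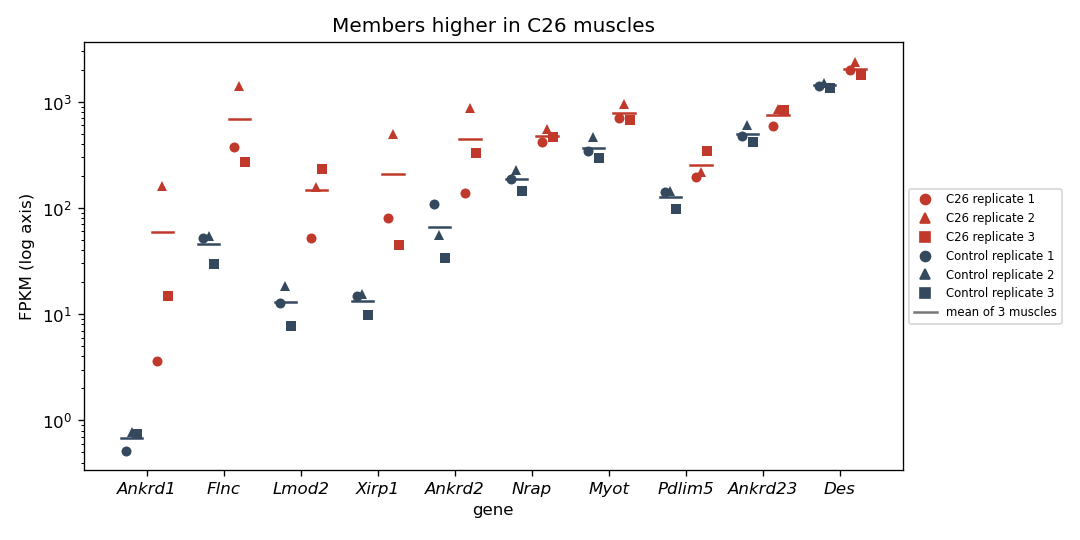
FPKM on a log axis of the 10 members that rose, ordered by log2 fold change, with 1 point per muscle and a line at the mean of 3 muscles. In Ankrd1, Flnc, Xirp1 and Ankrd2 C26 replicate 2 (triangle) is far above the other C26 muscles, while Lmod2 and Pdlim5 are highest in C26 replicate 3 (square).

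Of the 6 genes for thin filament length and capping, 1 rose and 1 fell. The number that fell was 4 on FPKM as deposited, 5 after quantile normalization, 2 without C26 replicate 3, with the GC trend removed or with weighted TMM, and 0 in the other 5 leave-outs. Lmod2 encodes leiomodin 2, an actin nucleator that lengthens thin filaments at their pointed ends and is best known from heart. It was at 52.3, 158 and 232 FPKM in the C26 muscles and 12.8, 18.6 and 7.81 FPKM in the controls, a clear separation (log2 fold change 3.48, SE 0.62, adjusted p = 0.00959), and the call held with each muscle left out. Lmod3, the leiomodin of skeletal muscle, was at 29.5, 21.7 and 48.4 FPKM against 69.6, 70.8 and 57.8 FPKM. Its difference had the opposite sign and missed the threshold (log2 fold change -0.84, 95% interval -1.64 to -0.03, adjusted p = 0.0964). Tmod4 encodes the tropomodulin that caps the pointed ends in fast fibres and was the most abundant gene of the group in the controls. It was at 154, 94.6 and 294 FPKM against 473, 499 and 492 FPKM, without overlap (log2 fold change -1.37, SE 0.42, adjusted p = 0.0485). The fall of Tmod4 was kept only without C26 replicate 3 and lost in the other 5 leave-outs, and it was -0.95 on the log2 scale without C26 replicate 2 (adjusted p up to 0.136). It was also lost with the replicate block (adjusted p = 0.0796) and with the trend with transcript length removed (adjusted p = 0.0549). Tmod1 differed by -0.41 (adjusted p = 0.155). Capzb and Capza2, which encode subunits of the barbed-end cap at the Z-disc, differed by -0.41 (adjusted p = 0.0502) and -0.23 (95% interval -0.72 to 0.27), and in Capzb all C26 values, 105, 100.2 and 101 FPKM, were below the control values of 156, 154 and 163 FPKM.

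Des, which encodes desmin, the intermediate filament that ties Z-discs to each other and to the membrane, rose. It was at 1964, 2369 and 1765 FPKM in the C26 muscles and 1409, 1514 and 1359 FPKM in the controls, a small shift relative to its level but larger than the spread between muscles (log2 fold change 0.72, SE 0.16, adjusted p = 0.0185). The call was lost without C26 replicate 1, C26 replicate 2 or Control replicate 1 (adjusted p up to 0.0722), after quantile normalization (adjusted p = 0.0572) and with the intensity trend (adjusted p = 0.0554). Desmin is also made by smooth muscle, and of the other 5 smooth muscle markers 0 rose and Smtn fell. Of all 6 smooth muscle markers 3 fell without C26 replicate 3, and 2 fell without Control replicate 2, on FPKM as deposited, after quantile normalization and in 5 other alternatives, and the part of smooth muscle in the Des value was not tested. Murc, now named Cavin4, encodes a muscle protein of the caveolar coat. It was at 75.9 ± 28.5 FPKM against 43.3 ± 11.1 FPKM and missed the threshold (log2 fold change 0.98, adjusted p = 0.0636), which it passed without C26 replicate 3 (adjusted p = 0.0347).

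Of the 6 genes for sarcomere assembly and turnover, 0 were called by limma, and 1 higher and 1 lower had an unadjusted p under 0.05. In the other fits 1 fell on FPKM as deposited, after quantile normalization, without C26 replicate 3 or without Control replicate 3, and 1 rose with the replicate block. Trim54, which encodes the ubiquitin ligase MuRF3, was at 407, 396 and 404 FPKM in the controls and at 294, 272 and 612 FPKM in the C26 muscles. C26 replicates 1 and 2 were below the controls in FPKM and replicate 3 was above them (log2 fold change 0.08, 95% interval -0.75 to 0.91). Trim55, which encodes MuRF2, differed by -0.36 (95% interval -1.17 to 0.45) and by -0.73 without Control replicate 3 (adjusted p = 0.0375). The third gene of that ligase family, Trim63, is not a member and stood far from both: it was at 4230.1, 3229.6 and 2616 FPKM in the C26 muscles and 131, 147 and 109 FPKM in the controls (log2 fold change 4.89, SE 0.24, adjusted p = 0.000822). Klhl40 and Klhl41 encode kelch proteins that stabilise thin filament proteins. Klhl40 was at 52.8, 171 and 38.4 FPKM against 51.5, 48.9 and 40.2 FPKM, with replicate 2 alone well above the controls (adjusted p = 0.255). Klhl41 was higher in all C26 muscles but missed the threshold (log2 fold change 0.82, adjusted p = 0.0748). Smyd1, which encodes a methyltransferase needed for thick filament assembly, was lower at 64.6 ± 26.9 FPKM against 141 ± 26.8 FPKM (log2 fold change -0.96, adjusted p = 0.0756). Unc45b, which encodes the myosin chaperone, differed by -0.16 (95% interval -0.68 to 0.36).

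The SD of log2(TPM + 1) was larger in the C26 group for 28 of 42 members (66.7%), against 55.3% of the 10450 genes with a mean of at least 1 FPKM, and its median over the members was 0.51 in the C26 muscles and 0.38 in the controls, where over those genes it was 0.24 and 0.21. In 6 members C26 replicate 2 was more than 2 times as high in TPM as each of the other C26 muscles, which occurred in 0.957% of the genes with a mean of at least 1 FPKM. These were Ankrd1 (9.79 times the next C26 muscle), Xirp1 (5.96), Flnc (3.60), Klhl40 (3.12), Xirp2 (2.57) and Ankrd2 (2.37). C26 replicate 3 stood above the others in the same way in 8 members, Myom3, Myoz3, Myoz2, Tcap, Tmod4, Trim54, Ldb3 and Smyd1, against 4.98% of those genes. The ratio to the next C26 muscle ran from 2.04 in Tmod4 to 10.3 in Myom3. For C26 replicate 1 the number was 0, against 0.737%. Of the 6 members highest in replicate 2, 4 had risen over the 3 C26 muscles (Ankrd1, Ankrd2, Flnc and Xirp1). Of the 8 highest in replicate 3, Tmod4 had fallen and the other 7 had not passed the test.

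The same muscles differed in other measured genes. C26 replicate 3 had a summed TPM of 5015 for the fast 2A and 2X myosin genes Myh2 and Myh1, against 608 and 722 in the other C26 muscles and 283 to 869 in the controls. It had the highest summed TPM of skeletal fibre markers among the C26 muscles, 229559 against 152341 and 187398. These markers include the member Tcap, itself highest in C26 replicate 3, and Myh1, already in the sum above, so the measures are not separate. The slow-fibre marker sum of C26 replicate 3 was 769, against 109 and 388 in the other C26 muscles. The slow myosin gene Myh7 was at 14.2, 2.46 and 28.9 FPKM in the C26 muscles and 45.1, 5.73 and 16.8 FPKM in the controls, and the 2B myosin gene Myh4 was at 10905, 8824 and 8751 FPKM and 8812, 10809 and 8672 FPKM. C26 replicate 2 had the lowest skeletal fibre marker sum and the highest macrophage marker sum, 496 against 115 and 35.7. Of that sum most came from Cd68, at 247 FPKM, while Adgre1 was at 0.46 FPKM. It also had the highest sum of denervation markers, 67.4 against 20.7 and 38.6 in the other C26 muscles and 15.4 to 20.7 in the controls, although 0 of 7 such genes were called by limma (1 at an unadjusted p under 0.05, higher) and 1 was called higher without C26 replicate 3, without Control replicate 3 or with the replicate block. Most of that sum came from Myog, at 30.9 FPKM, while Chrna1 was lower in replicate 2 than in the other C26 muscles, at 0.73 against 1.75 and 2.53 FPKM. The part of fibre composition or of other cells in the differences between muscles was not tested. Without C26 replicate 3, 7 further members passed the threshold as lower (Myoz1, Myoz3, Ldb3, Tcap, Synpo2, Lmod3 and Smyd1) and Murc passed it as higher, with adjusted p from 0.00612 for Myoz3 to 0.0347 for Murc.

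**Figure D4:**
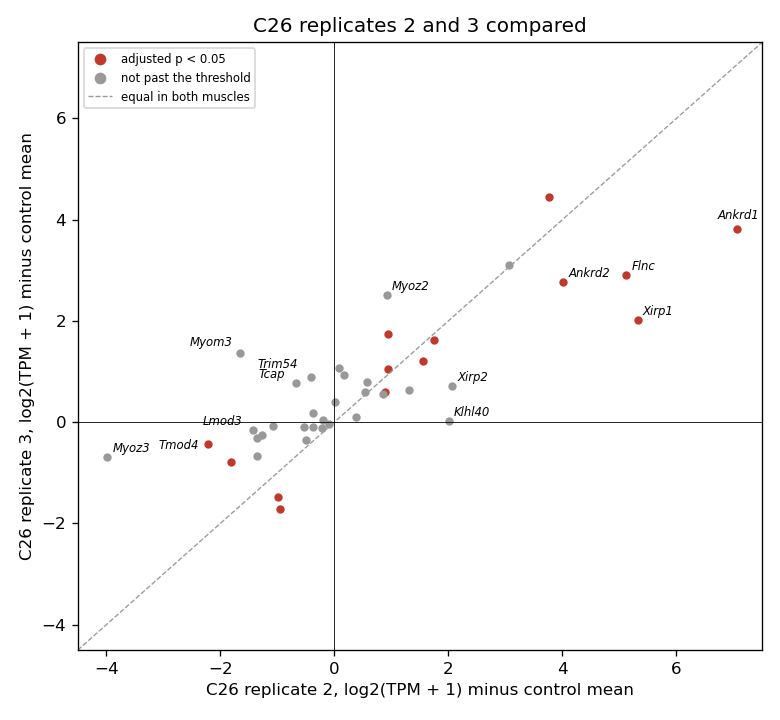
Each point is 1 of the 42 members, with log2(TPM + 1) minus the control mean in C26 replicate 2 on the horizontal axis and in C26 replicate 3 on the vertical axis, and red marks an adjusted p under 0.05 over all 6 muscles. Ankrd1, Xirp1, Flnc, Ankrd2, Xirp2 and Klhl40 lie to the right of the dashed line of equality, and Myom3, Myoz3, Myoz2, Tcap, Tmod4, Trim54 and Lmod3 lie above it.

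The other genes of the sarcomere and its attachments were read from lists of gene symbols, and the genes named from them kept their sign in all 17 other fits. Not all kept their call when 1 muscle was left out. It held in 1 of 6 leave-outs for Sorbs2 and Mef2c, in 2 for Kbtbd13, in 3 for Flna, Nes, Lmna and Abra, in 4 for Mylpf, Hspa1a and Myl9, in 5 for Dag1, Hspb1 and Hspb3, and in all 6 for the others named here. Of 31 further genes, mostly of the Z-disc, M-band and sarcomere but with the junctophilin genes Jph1 and Jph2 among them, 5 rose and 5 fell. Their median log2 fold change was 0.13. The counts were 4 and 2 without C26 replicate 1 and 3 and 3 without Control replicate 1. They were 3 and 5 after quantile normalization or with the replicate block, and 4 and 7 on FPKM as deposited. Among them Actn2, which encodes the α-actinin that crosslinks actin at the Z-disc, rose (log2 fold change 2.08, SE 0.31, adjusted p = 0.00636). Mybph, which encodes a myosin-binding protein H, fell (log2 fold change -4.52, SE 0.65, adjusted p = 0.00598), as did the adaptor gene Sorbs2 (log2 fold change -2.70) and the junctophilin gene Jph2 (log2 fold change -2.63). Of 19 thick and thin filament genes, 0 rose by limma (0 also at an unadjusted p under 0.05), 5 fell and 14 did not pass the test, with a median of -0.67. After quantile normalization 2 of them rose and 5 fell, and on FPKM as deposited 0 rose and 8 fell. Without C26 replicate 1 or Control replicate 1 the number that fell was 3. Those that fell most were Actc1, which encodes cardiac actin (log2 fold change -3.18), Mylpf and Myl1, which encode fast myosin light chains (-1.95 and -1.69), and Tpm1, which encodes a tropomyosin (-1.83). Of 21 costamere and adhesion genes, 4 rose and 4 fell, with 2 and 1 without C26 replicate 1. The counts were 3 and 1 without C26 replicate 2 or Control replicate 1, and 7 and 4 without C26 replicate 3. With all muscles they were 4 and 2 with the replicate block, and 6 and 4 without the 20 most abundant genes. Dag1, Dmd and Pxn, which encode dystroglycan, dystrophin and paxillin, rose by 1.62, 1.29 and 1.11 on the log2 scale, and Flna, which encodes the widely expressed filamin A, fell to 4.68, 5.38 and 6.30 FPKM from 18.9, 10.5 and 29.9 FPKM (log2 fold change -1.44), the opposite sign to Flnc. Of 10 intermediate filament and linker genes, 1 rose and 2 fell, namely Lmna (log2 fold change 0.64), which encodes lamins A and C, and Vim and Nes (-2.25 and -0.90), which encode vimentin and nestin. Without C26 replicate 1 or Control replicate 1 the counts were 0 and 1, and without C26 replicate 2 they were 0 and 2. Without C26 replicate 3 they were 2 and 3, and without Control replicate 2 they were 2 and 1. With all 6 muscles they were 0 and 3 on FPKM as deposited and 0 and 2 after quantile normalization. They were 0 and 1 with the replicate block, and 2 and 2 on TPM without TMM or without the 20 most abundant genes. Vim and Flna are also expressed by fibroblasts, whose markers were lower in the same muscles. Flna was highest in Control replicate 3, which had the lowest fibroblast marker sum of the controls and the high Cd79b value. The part of fibroblasts or of other cells was not tested.

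Chaperones that bind filamin, desmin and other myofibrillar proteins rose in 7 of 15 cases and fell in 1, or rose in 3 and fell in 0 without Control replicate 1. The number that fell was 2 without C26 replicate 1 or C26 replicate 3. It was also 2 on FPKM as deposited, after quantile normalization and on TPM without TMM. The mean TPM filter, the intensity trend and weighted TMM gave 2 as well. Hspb7, which encodes a small heat shock protein that binds filamin C, was at 254, 1046 and 636 FPKM in the C26 muscles and 64.3, 46.5 and 24.1 FPKM in the controls (log2 fold change 3.92, SE 0.59, adjusted p = 0.00648). Hspb1 was at 859, 3179 and 614 FPKM against 271, 212 and 210.1 FPKM (log2 fold change 2.59, SE 0.56, adjusted p = 0.0162), and both genes were highest in C26 replicate 2, as Flnc was. Hspa1a, an inducible Hsp70 gene, rose (2.10 on the log2 scale) and Hspb3 fell (-2.32). Of 9 listed ubiquitin ligase genes that act on sarcomere proteins, 4 rose and 1 fell. The fall was lost without C26 replicate 1, C26 replicate 2, Control replicate 1 or Control replicate 2. With the replicate block 5 rose and 0 fell. Beside Trim63, Fbxo32, which encodes atrogin-1, rose from 37.0, 46.8 and 26.2 FPKM to 861, 572 and 541 FPKM (log2 fold change 4.36, SE 0.31, adjusted p = 0.00116), and Fbxo30 rose (log2 fold change 2.01), while Kbtbd13 fell (-1.39). Trim63 and Fbxo32 were not highest in C26 replicate 2 but in replicate 1. Of 23 genes of the SRF, MRTF and YAP axis, which respond to actin dynamics and tension, 5 rose and 4 fell. The counts were 4 and 2 without C26 replicate 1 or Control replicate 1, 9 and 5 without C26 replicate 3, and 5 and 7 after quantile normalization. Abra, which encodes a Z-disc activator of SRF signalling, rose from 80.9, 92.3 and 62.0 FPKM to 1132, 894 and 178 FPKM (log2 fold change 3.07, SE 0.66, adjusted p = 0.0162), and Fos and Vgll2 also rose (log2 fold change 3.42 and 2.82). The 4 that fell were Actc1, given above, Mef2c, which encodes a MEF2 factor, Mkl1, which encodes the SRF coactivator MRTF-A, and Myl9, which encodes a myosin light chain of smooth muscle and non-muscle cells. Mef2c was at 4.48, 3.02 and 24.1 FPKM in the C26 muscles and 45.5, 52.1 and 57.6 FPKM in the controls (log2 fold change -2.55, SE 0.72, adjusted p = 0.036), with C26 replicate 3 nearest to the controls. The log2 fold change was -1.95 for Mkl1 and -1.42 for Myl9. The 5 that rose also included Mef2a, which encodes another MEF2 factor, and Yap1. Mef2a was at 40.1, 32.9 and 32.1 FPKM in the C26 muscles and 17.8, 18.3 and 15.6 FPKM in the controls. Yap1 was at 21.1, 21.4 and 17.8 FPKM against 12.1, 10.6 and 8.43 FPKM, and both calls held in all 17 other fits.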

How the data were processed

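Expression was compared between 3 gastrocnemius muscles from C26 mice and 3 from controls, grouped by the sample labels. The authors removed rRNA with RNaseH, sequenced single-end reads of 50 bases, aligned them and obtained the deposited FPKM with RSEM. The methods of the study name bowtie2 and GRCm38.p5, whereas the submitters' processing notes list HISAT2 2.0.4, Bowtie2 2.2.5, RSEM 1.2.12 and the build mm9, and coordinates were therefore taken only from the RefSeq table of GRCm38.p6. Whether counting used the strand is not given in the sources used here, so a gene and an antisense partner cannot be told apart. FPKM have 2 decimals, read counts were not analysed here, and depth and counting error are unknown. Precision rests on the spread between 3 muscles per group, against which the p-values set the difference between the groups. The labels do not tie the muscles to individual mice, so the 3 muscles of a group may not be 3 independent animals.

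Entrez gene IDs were matched to symbols for 13327 genes and not for 36. The FPKM were rescaled to TPM and divided by TMM factors without weighting (trimming 30% of the log ratios and 5% by mean level, factors 0.903 to 1.08). A pseudocount of 1 was added before log2, so changes of low genes are understated. The groups were compared with limma 3.58.1 in R 4.3.3 with empirical Bayes moderation, two-sided, with Benjamini-Hochberg adjustment over 13363 genes. The fit was tested on simulated data. Figures were drawn with Python 3.11.15 and matplotlib 3.10.9.

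The members and all gene lists were chosen with earlier results of these data known. Members with an adjusted p under 0.05 and an absolute log2 fold change of at least 1, and the most abundant member of each role in the controls, are given with all 6 values. Of the other lists up to 4 called genes with the largest changes are named, and markers of fibre types. Mef2a, Mef2c, Mkl1, Myl9, Plin4, Yap1 and the markers that account for a sum were named after their values had been seen. Beyond that rule, values in every muscle were added for further members after they had been seen. Calls, fold changes, medians and counts of groups not overlapping were recomputed on FPKM as deposited, after quantile normalization, on TPM without TMM, with a pseudocount of 0.1, over genes with a mean TPM of at least 1, with the 20 most abundant genes left out of the scaling, with replicate number as a block, with an intensity trend in the prior variance, and without each muscle in turn. Summed marker TPM, SDs, 2-fold patterns between the C26 muscles and promoter shares were computed once. Removal of trends with transcript length and GC content and weighted TMM were chosen after seeing the data.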

Additional observations from a re-analysis of the deposited data

How the results depend on the processing

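Over 11 alternatives with all 6 muscles and 6 fits leaving out 1 muscle, the rises of Nrap, Flnc and Lmod2 and the fall of Synpo2l stayed past the threshold, and the other 10 calls were lost in at least 1 of the 17 fits. The count of higher members stayed within 1.5 times of 10 in all 11 alternatives. Lower members were 11 on FPKM as deposited and 13 after quantile normalization, in place of 4. Lower members past the fold of 4 were 1 with the mean TPM filter, with TPM without TMM, on FPKM as deposited and with the intensity trend, and 2 after quantile normalization, in place of 0. Members with groups not overlapping were 9 higher after quantile normalization, and 13 lower on FPKM as deposited and after quantile normalization. Over all genes, 1678 rose on FPKM as deposited, 148 of them past the fold of 4, 1236 fell with the replicate block, and 566 fell past the fold of 4 with a pseudocount of 0.1. With 1 muscle left out, 4 to 9 members rose, 1 to 11 fell, 2 to 4 rose and 0 to 2 fell past the fold of 4, while over all genes 1131 to 3311 rose, 669 to 2160 fell, and 176 to 376 rose and 135 to 269 fell past the fold of 4. Fewer muscles are fitted there, and the cause of the other shifts was not tested. The replicate numbers carry no pairing in the sources, and same-number muscles deviated with correlations of -0.0394, -0.0843 and -0.112. With the number as a block, 8 members rose and 3 fell. The sign changed for 5 members that were not called: Ttn (-0.0083 on FPKM, -0.20 by quantiles), Trim54 (-0.14, -0.24, and -0.25 without C26 replicate 3), Obsl1 (-0.20, -0.26, -0.064 without the length trend, -0.043 with weighted TMM, -0.074 without C26 replicate 1 and -0.16 without Control replicate 3), and, without C26 replicate 1, Pdlim3 (0.24) and Tcap (0.052). Over the 6 leave-outs Obsl1 ran from -0.16 to 0.13, Pdlim3 from -0.52 to 0.24, Tcap from -0.78 to 0.052 and Trim54 from -0.25 to 0.32. Across the 11 alternatives the median over all genes lay between -0.145 (FPKM as deposited) and 0.0443 (mean TPM filter), and that of the members between -0.108 and 0.236.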
